A study of Mus musculus with 19 samples.

Results

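The dose series of the JAK3 inhibitor held 6 of the 19 samples of this study, chosen as all samples whose titles carry the inhibitor code 6226. These were 2 samples each at 0.25, 1 and 4 µM, all of mouse splenic natural killer (NK) cells, the cytotoxic lymphocytes of innate immunity, kept for 8 h in 250 U/ml of the growth factor interleukin-2 (IL-2). They are set beside 4 samples with IL-2 alone, 6 samples with IL-2 and an inhibitor of JAK1 (code 3404; 1 sample at 0.0625 µM, 2 each at 0.25 and 1 µM, 1 at 4 µM) and 3 untreated samples, which received neither IL-2 nor an inhibitor and of which 1 has no stated time. All donors were 6-week-old male C57BL/6 mice, and the cells were enriched from spleen by negative selection, with NK1.1 given as their marker. RNA was measured with Affymetrix Mouse Gene 1.0 ST arrays, 1 per sample, so precision is limited by how many arrays there were. The labels give the compounds by code and target kinase alone, and leave unsaid whether cells were pooled and whether replicates were separate mice or cultures. Each p-value therefore measures sample-to-sample spread that may be technical.

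IL-2 signals through a receptor whose common gamma chain carries the kinase JAK3 and whose beta chain carries JAK1. The 2 kinases activate the transcription factor STAT5, which in NK cells drives genes of killing, growth and feedback. Interferon receptors use other kinase pairs: the type I receptor carries JAK1 and TYK2, and the interferon-gamma receptor JAK1 and JAK2. Signals from these receptors induce the interferon-stimulated genes, many of which encode antiviral proteins.

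The deposited intensities lay on 2 scales. The 0.25 and 1 µM samples numbered replicate 1 had log2 medians of 7.53 and 7.59, and the other 4 samples of the series had medians between 5.70 and 5.86. The low scale held both 4 µM samples, so each gene's difference between the scales was estimated from all 19 samples and taken out in the fit. Log2 intensities below are on the low scale. The slope is the change in log2 intensity per 4-fold step of dose, the difference between 4 and 0.25 µM divided by 2 steps, and values after ± are its standard errors. The fit was limma's, with Benjamini-Hochberg adjustment over 19752 genes and a threshold of 0.05, and it is the source of every adjusted p below.

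The 4 µM samples differed from each other more than the pairs at lower doses. The SD over genes of the difference between the samples of a pair was 0.367 at 4 µM, 0.229 at 1 µM and 0.165 at 0.25 µM. For antiviral effector genes of the interferon response the 0.25 µM pair lay furthest apart. Their mean log2 intensity over 26 genes was 7.53 in replicate 1 and 8.01 in replicate 2 at 0.25 µM. It was 6.92 and 6.86 at 1 µM, and 6.41 and 6.28 at 4 µM. Replicate 1 of 4 µM stood apart in mitotic genes, with a mean log2 intensity of 5.52 over 29 G2/M genes, against 6.78 in replicate 2 and 6.45 to 6.70 in the samples at lower doses. It was also low in 14 T cell markers, with a mean of 6.31, against 7.25 in replicate 2 and 7.11 to 7.32 at lower doses. Of 15 NK cell markers 14 were measured, and 13 of these lay between percentiles 76.7 and 99.3 of all genes in mean intensity over the 6 samples, with Klre1 at percentile 30.2. Transcripts of other spleen cells were present as well, since the B cell gene Cd79a stood at 10.76 to 11.44 in the 6 samples. The mean of 14 monocyte and macrophage markers was 8.05 to 8.25 over the 6 samples, with no order by dose, against 6.33 to 6.71 with IL-2 alone. In such bulk samples fewer cells of a type and less RNA per cell cannot be told apart.

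With rising dose, interferon-stimulated genes fell. The test called 27 genes lower with dose (0.137% of 19752) and 3 higher (0.0152%), with 1772 at an unadjusted p under 0.05. Slopes of the 27 lay between -1.39 for Ifit3 and -0.41 for Anxa9, with a median of -0.95, against a median of -0.05 and 68% of slopes below 0 over all genes. IL-2 alone had raised 24 of the 27 at least 2-fold over untreated cells (1.69% of all genes) and 25 past the test at any size (9.15% of all genes were called with IL-2, 6.56% higher and 2.59% lower). At 0.25 µM 5 of the 27 were called lower than with IL-2 alone (2.26% of all genes), and at 4 µM all 27 had a mean below that of untreated cells (52.8% of all genes), a difference that passed the test in none. The slope uses the 0.25 and 4 µM samples of these comparisons, so the choice of the 27 bears on both counts. Of the 100 measured members of the interferon lists, 19 were called lower and 0 higher. In 25 of the 27 genes the samples of the 3 doses lay in falling order without overlap, as in 2.1% of all genes. Passing the test already places 4 µM below 0.25 µM, so only the position of the 1 µM samples was free.

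The calls leaned on single samples. Without replicate 2 of 0.25 µM 0 genes passed in limma, with 300 at an unadjusted p under 0.05. Without replicate 2 of 4 µM 171 genes passed (159 lower), and without replicate 1 of 4 µM 20 passed (17 lower, 13 of them among the 27). Within the low scale, where 0.25 and 1 µM have 1 sample each, 29 genes passed, 27 of them lower and 20 of those among the 27 of the full fit. A straight line through the 6 samples alone, without the rest of the study, called 55 genes, all lower. Of those 55, 23 were among the 27 and 35 were on the interferon lists.

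**Figure D1:**
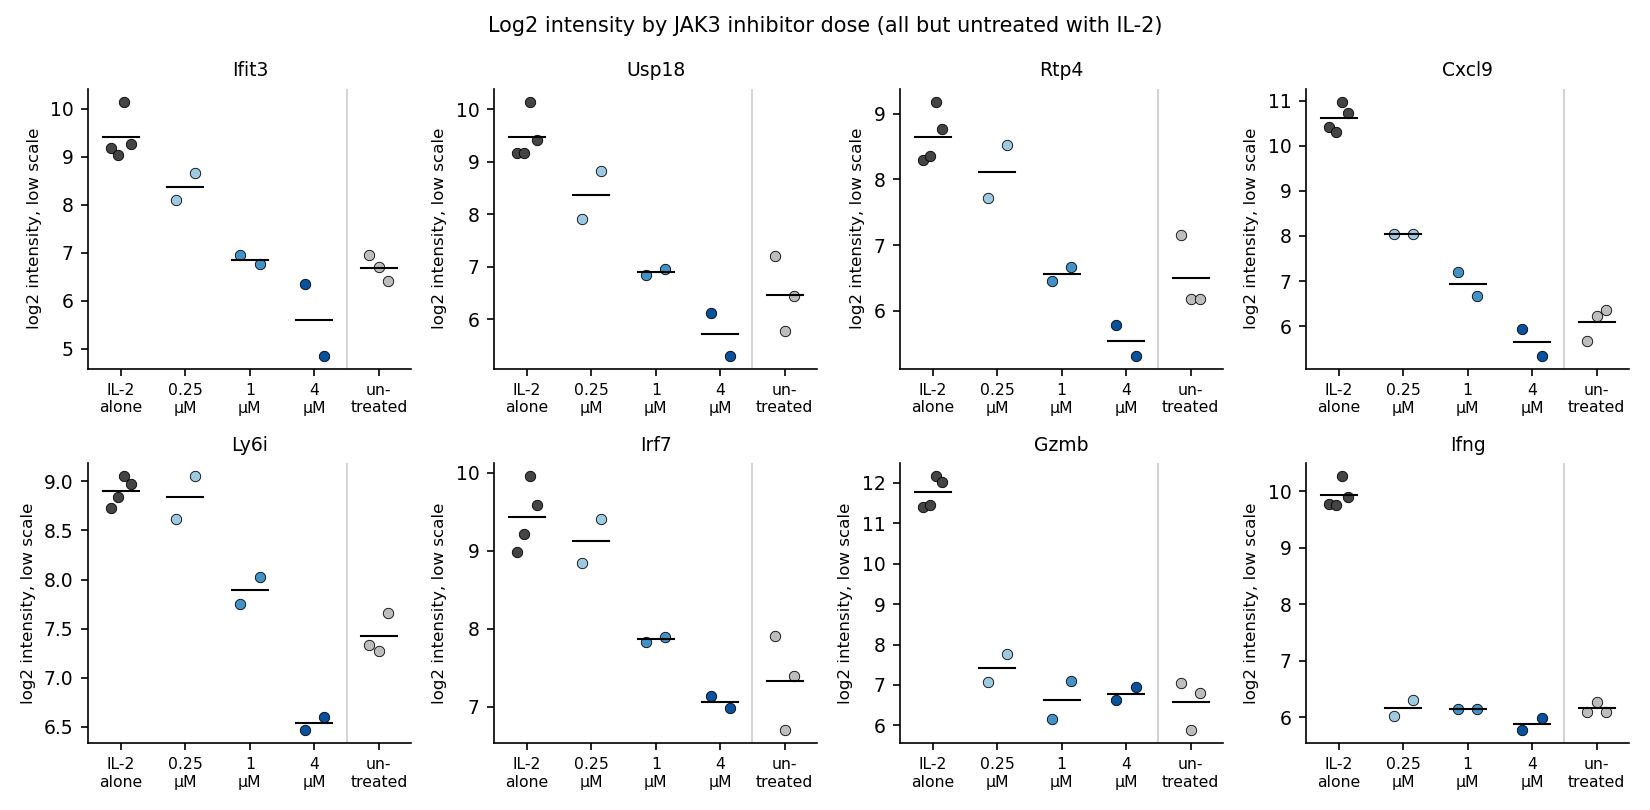
Log2 intensity on the low scale (vertical axes, 1 panel per gene) in the 4 samples with IL-2 alone, the 2 samples at each JAK3 inhibitor dose and the 3 untreated samples; points are samples and bars are group means. Ifit3, Usp18, Rtp4, Cxcl9, Ly6i and Irf7 descend over the 3 doses, while Gzmb and Ifng lie near the untreated samples from 0.25 µM on.

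Antiviral effectors held the steepest slope and the most called genes of any list. Of 26 measured genes on this list 10 were called lower, against 0.137% of all genes. All 26 had a slope below 0, against 68% of all genes, and the median slope was -0.69. Ifit3, which encodes a protein of the IFIT family that binds viral RNA together with its relatives, had log2 intensities of 9.19, 9.05, 10.15 and 9.27 with IL-2 alone, 8.10 and 8.66 at 0.25 µM, 6.96 and 6.76 at 1 µM and 6.35 and 4.85 at 4 µM, against 6.95, 6.71 and 6.40 in untreated cells. The doses did not overlap, every inhibited sample lay below every sample with IL-2 alone, and the 4 µM samples lay below the untreated ones. The slope was -1.39 ± 0.21 (adjusted p = 0.00529), a 2.62-fold fall per step. Ifit1, which recognises RNA lacking the host cap methylation, stood at 7.18 and 7.45 at 0.25 µM, 6.17 and 6.29 at 1 µM and, as a mean, 5.22 ± 0.31 at 4 µM (SD, n = 2). Its slope was -1.05 ± 0.15 (adjusted p = 0.00342), and Ifit2, of the same family, gave -0.90 ± 0.17 (adjusted p = 0.0254).

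Genes of the 2'-5' oligoadenylate synthetase family, whose active enzymes switch on an RNA-degrading nuclease, were among those that fell. Oasl2 had log2 intensities of 9.49, 9.65, 10.30 and 9.94 with IL-2 alone, 9.04 and 9.63 at 0.25 µM, 8.14 and 8.13 at 1 µM and 6.89 and 6.90 at 4 µM, against 8.04, 6.90 and 7.90 in untreated cells. Replicate 2 of 0.25 µM lay within the range of IL-2 alone, and the doses did not overlap. The slope was -1.22 ± 0.17 (adjusted p = 0.00232). Oas3 (-1.05 ± 0.17), Oasl1 (-1.05 ± 0.18) and Oas2 (-0.87 ± 0.14) passed too, with adjusted p of 0.0115, 0.0156 and 0.0112. Oas1a and Oas1b gave -0.43 ± 0.14 and -0.32 ± 0.12 and did not pass.

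Rtp4, an interferon-induced member of the receptor transporter family, had log2 intensities of 7.72 and 8.52 at 0.25 µM, 6.46 and 6.67 at 1 µM and 5.78 and 5.32 at 4 µM. The 4 samples with IL-2 alone lay between 8.30 and 9.18 and the untreated samples between 6.17 and 7.16, so the 4 µM samples were below all untreated ones. The slope was -1.29 ± 0.18 (adjusted p = 0.00232). Rsad2, which encodes viperin, an enzyme that makes a chain-terminating nucleotide, gave -1.12 ± 0.19 (adjusted p = 0.0115). Ifi27l2a, a mitochondrial interferon-induced protein, gave -0.80 ± 0.14 (adjusted p = 0.017). The 16 remaining members of the list did not pass. Among them Xaf1 (-0.77), Isg20 (-0.74), Cmpk2 (-0.73) and Eif2ak2 (-0.66) had the lowest slopes, with adjusted p of 0.0562, 0.0564, 0.0562 and 0.0926, and Ifitm3 (-0.22) and Samhd1 (-0.19) the slopes nearest 0.

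Many interferon-stimulated genes carry the interferon-stimulated response element (ISRE) in their promoters. Of the 27 falling genes 19 had a promoter in the RefSeq table used (GRCm38.p6, 250 bases before to 50 after the gene start), and 9 of these 19 held the ISRE core (GAAA, any 2 bases, GAAA) on either strand (47.37%), none of them together with the second motif below. The same letters occurred in 15.47% of promoters of the genes raised at least 2-fold by IL-2, in 13.25% of those that did not fall, and in 3.99% of all 27025 promoters. The gamma-activated site TTCNNNGAA, a palindromic sequence, occurred in 1 of the 19 and in 9.55% of all promoters. It occurred in 14.72% of promoters of the genes raised at least 2-fold by IL-2 and in 15.26% of those that did not fall. A match is a description of the letters and not a measured site. The following stretches of 70 bases upstream of the start, read 5′ to 3′ on the gene's strand, show matches in capitals in 6 of the falling genes, with TTTC, any 2 bases, TTTC being the same core on the other strand.
Ifit3, chr19:34583368-34583437, plus strand: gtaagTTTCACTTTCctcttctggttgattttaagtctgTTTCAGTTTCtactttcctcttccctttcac
Ifit1, chr19:34640774-34640843, plus strand: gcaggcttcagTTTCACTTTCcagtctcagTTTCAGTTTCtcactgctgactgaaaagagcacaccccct
Rsad2, chr12:26456533-26456602, minus strand: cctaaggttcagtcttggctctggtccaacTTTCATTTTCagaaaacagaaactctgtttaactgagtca
Oas3, chr5:120777695-120777764, minus strand: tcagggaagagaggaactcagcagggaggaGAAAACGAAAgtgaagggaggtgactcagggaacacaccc
Cxcl10, chr5:92349063-92349132, minus strand: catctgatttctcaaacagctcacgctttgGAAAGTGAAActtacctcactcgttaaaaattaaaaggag
Slfn5, chr11:82951917-82951986, plus strand: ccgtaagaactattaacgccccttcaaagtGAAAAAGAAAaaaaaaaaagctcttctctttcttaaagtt
Ifit3 and Ifit1 each held 2 matches, and the other 4 genes held 1 each. Ifi213, Ifi205 and Aif1 were the remaining falling genes with a match, and the promoters of Oasl2, Cxcl9, Irf7 and Slfn1 held none in this window.

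Genes that tag, sense or regulate within the interferon response were also among those that fell. Usp18, the protease that removes the ubiquitin-like ISG15 and blocks the type I interferon receptor, had log2 intensities of 9.16, 9.18, 10.15 and 9.41 with IL-2 alone, 7.92 and 8.82 at 0.25 µM, 6.85 and 6.95 at 1 µM and 6.13 and 5.30 at 4 µM, against 7.20, 5.78 and 6.44 in untreated cells. The doses did not overlap, and the 4 µM and untreated ranges did. Its slope was -1.33 ± 0.20 (adjusted p = 0.00628). The ligase gene Herc6 (-0.67 ± 0.15), the conjugating enzyme gene Ube2l6 (-0.42 ± 0.12) and the activating enzyme gene Uba7 (-0.25 ± 0.10) of the same pathway did not pass (adjusted p = 0.0925, 0.261 and 0.451). The list of interferon-induced PARP genes, which attach ADP-ribose, also holds Dtx3l, which is not a PARP gene. The list's median slope was -0.57 with 0 of 6 called. Dtx3l (-0.55 ± 0.12, adjusted p = 0.0763), Parp12 (-0.62 ± 0.15), Parp14 (-0.59 ± 0.14) and Parp9 (-0.58 ± 0.15) were closest to the threshold, and Dtx3l passed in 5 of 17 alternative settings.

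Of 8 measured nucleic acid sensor genes 3 were called lower (0.137% of all genes), with a list median of -0.49. Zbp1, a sensor of Z-form nucleic acids, had log2 intensities of 8.59 and 9.41 at 0.25 µM, 7.60 and 7.71 at 1 µM and 7.06 and 7.07 at 4 µM, between 9.81 and 10.77 with IL-2 alone, and between 6.54 and 7.75 in untreated cells. It had already fallen at 0.25 µM, where both samples lay below every sample with IL-2 alone (-1.23, adjusted p = 0.0197), and its slope was -0.97 ± 0.18 (adjusted p = 0.0289). Ifi205, a mouse gene of the PYHIN family of DNA-binding proteins, gave -0.77 ± 0.12 (adjusted p = 0.0066), and Dhx58, which encodes LGP2, gave -0.95 ± 0.18 (adjusted p = 0.0309). Ddx58, the gene of the RNA sensor RIG-I, did not pass (-0.52 ± 0.14, adjusted p = 0.241). Ifi213, also of the PYHIN family, fell by 0.88 ± 0.16 per step (adjusted p = 0.0207). The call of Zbp1 ended in 5 of 17 alternative settings and that of Dhx58 in 7.

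Schlafen genes, named for their role in halting lymphocyte growth, were divided. Slfn1 had log2 intensities of 8.14 and 8.54 at 0.25 µM, 7.56 and 7.44 at 1 µM and 6.43 and 6.58 at 4 µM. The samples with IL-2 alone lay between 8.55 and 9.12 and the untreated ones between 6.58 and 7.19. The slope of Slfn1 was -0.92 ± 0.12 (adjusted p = 0.00219), and Slfn5 followed with -1.11 ± 0.21 (adjusted p = 0.0262). Slfn8 (-0.67 ± 0.15) and Slfn4 (-0.54 ± 0.12) did not pass (adjusted p = 0.0822 and 0.0763), and Slfn2 and Slfn3 stood at 0.13 and -0.01.

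Among the factors that transmit interferon signals, Irf7 was the gene that passed. Irf7, the interferon-induced factor that amplifies type I interferon production, had log2 intensities of 8.99, 9.21, 9.96 and 9.59 with IL-2 alone, 8.85 and 9.41 at 0.25 µM, 7.83 and 7.90 at 1 µM and 7.14 and 6.98 at 4 µM, against 7.90, 6.70 and 7.40 in untreated cells. The 0.25 µM samples overlapped those with IL-2 alone, and 1 and 4 µM did not overlap 0.25 µM. Its slope was -1.03 ± 0.17 (adjusted p = 0.0115), 1 of 7 interferon regulatory factors called lower (0.137% of all genes). Irf1 did not pass for the slope (-0.34 ± 0.13, adjusted p = 0.472) but was already lower at 0.25 µM than with IL-2 alone (-0.91, adjusted p = 0.0184). Of 14 interferon receptor, Janus kinase and STAT genes 0 were called, with a median of -0.02. Irf9 (-0.50 ± 0.14), Stat2 (-0.48 ± 0.16), Tyk2 (-0.20 ± 0.13) and Ifnar1 (0.15 ± 0.10) had the smallest p, and Jak1 gave 0.12 ± 0.08. Jak3 was not analysed here.

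Cxcl9, a chemokine gene that interferon-gamma induces and that recruits CXCR3-bearing lymphocytes, combined a fall at the lowest dose with a further fall over the doses. It stood at 10.42, 10.31, 10.97 and 10.72 with IL-2 alone, 8.04 and 8.04 at 0.25 µM, 7.20 and 6.66 at 1 µM and 5.94 and 5.34 at 4 µM, against 5.67, 6.23 and 6.35 in untreated cells. No dose overlapped another, and 4 µM overlapped the untreated samples. The slope was -1.20 ± 0.15 (adjusted p = 0.00188). Cxcl10, which binds the same receptor, stood at 6.97 and 8.16 at 0.25 µM, 6.51 and 6.71 at 1 µM and 5.93 and 5.55 at 4 µM, and had a slope of -0.91 ± 0.18 (adjusted p = 0.0434). Its 0.25 µM samples were further apart than those of Cxcl9, and its call ended in 7 of 17 alternative settings. Cxcl11 (-0.26 ± 0.09) and Ccl12 (-0.18 ± 0.08) did not pass, so 2 of 7 interferon-induced chemokine genes were called lower (0.137% of all genes).

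Surface proteins added 4 called genes. Ly6i, of the Ly6 family of lipid-anchored proteins, had log2 intensities of 8.73, 8.84, 9.05 and 8.98 with IL-2 alone, 8.62 and 9.05 at 0.25 µM, 7.75 and 8.03 at 1 µM and 6.47 and 6.61 at 4 µM, against 7.34, 7.27 and 7.66 in untreated cells. At 0.25 µM its samples lay at either end of the range of IL-2 alone, and at 4 µM below every untreated sample. Its slope was -1.15 ± 0.14 (adjusted p = 0.00188). Cd274, the gene of the checkpoint ligand PD-L1, stood at 8.19 and 8.36 at 0.25 µM, 7.62 and 7.93 at 1 µM and 7.07 and 7.46 at 4 µM, with a slope of -0.51 ± 0.10 (adjusted p = 0.0305). H2-T24, a nonclassical MHC class I gene (-0.92 ± 0.16, adjusted p = 0.0159), and Sdc3, the gene of the proteoglycan syndecan-3 (-0.63 ± 0.11, adjusted p = 0.0211), were the others. The call of Cd274 ended in 8 of 17 alternative settings. Ly6i, H2-T24, Ifi205, Ifi213 and the Ifit, Oas and Schlafen genes belong to families with close copies in the mouse, and how far the probes separate these copies was not tested.

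Interferon-inducible GTPases and genes of MHC class I presentation, which interferon-gamma also induces, had no call for the slope in the fit described here. All 8 measured GTPase genes were called lower at 0.25 µM than with IL-2 alone (2.26% of all genes), with a median difference of -1.36. For the slope 0 of 8 were called, with a median of -0.44. Gbp7, a guanylate-binding protein gene, stood at 8.57 and 8.93 at 0.25 µM, 7.98 and 8.02 at 1 µM and 7.30 and 7.95 at 4 µM, against a mean of 10.14 ± 0.11 with IL-2 alone (SD, n = 4). Its slope was -0.56 ± 0.11 (adjusted p = 0.0533), and Irgm1, an autophagy-linked GTPase gene, gave -0.74 ± 0.16 (adjusted p = 0.0907). Gbp7 passed in 8 of 17 alternative settings and Irgm1 in 5 of 17. Gbp5 and Gbp3 gave -0.44 ± 0.14 and -0.39 ± 0.13. The slope and the difference from IL-2 alone share the 0.25 µM samples, so a low value there makes the second more negative and the first less so. MHC class I genes had a median slope of -0.27 with 0 of 12 called, led by the peptide transporter gene Tap1 (-0.41 ± 0.12, adjusted p = 0.285), Psmb10 (-0.29 ± 0.09), Tapbpl (-0.37 ± 0.12) and Tapbp (-0.35 ± 0.13).

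**Figure D2:**
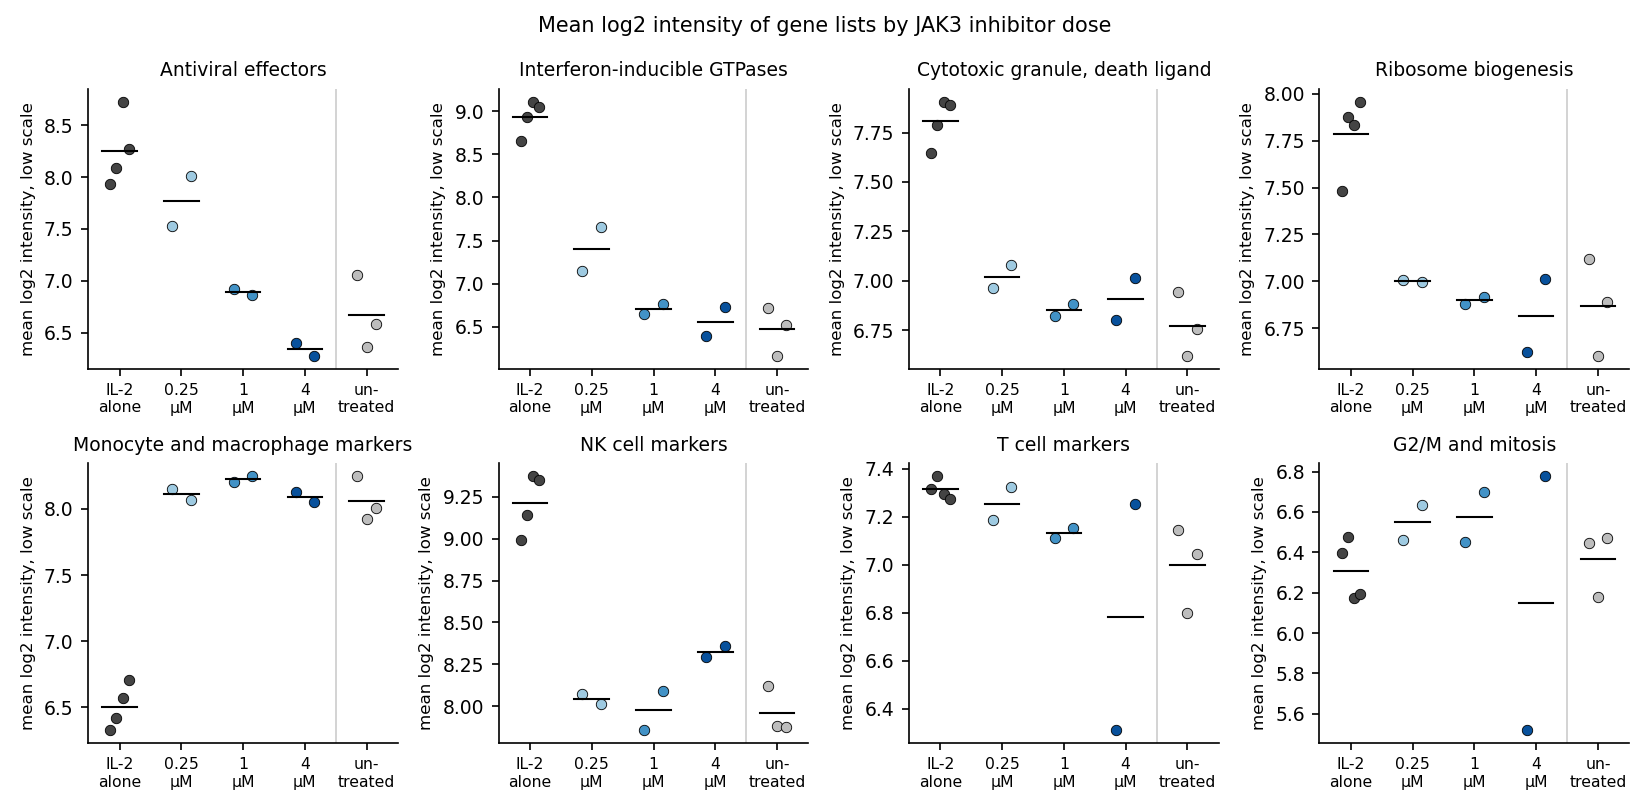
Mean log2 intensity on the low scale over the measured genes of 8 lists (vertical axes) in the samples with IL-2 alone, at each JAK3 inhibitor dose and untreated; points are samples and bars are group means. The antiviral effectors descend over the 3 doses, the granule and ribosome biogenesis lists reach the untreated range at 0.25 µM or 1 µM, and replicate 1 of 4 µM is the low point of the T cell and G2/M lists.

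The other 3 falling genes were not raised 2-fold by IL-2. Aif1, a myeloid actin-binding protein gene, had log2 intensities of 5.42 and 5.67 at 0.25 µM, 5.02 and 4.99 at 1 µM and 4.22 and 4.75 at 4 µM, against 4.71 to 5.09 with IL-2 alone. The 0.25 µM samples were above every sample with IL-2 alone, and the slope was -0.53 ± 0.10 (adjusted p = 0.0225). Anxa9, an annexin gene (-0.41 ± 0.08, adjusted p = 0.0363), and 2410018L13Rik (-0.54 ± 0.09, adjusted p = 0.00756) were lowest at 4 µM. The 0.25 and 1 µM samples of 2410018L13Rik lay between 4.70 and 4.95, above every sample with IL-2 alone (4.09 to 4.56), and the difference of 0.43 between 0.25 µM and IL-2 alone did not pass (adjusted p = 0.107). Of the 27, 2410018L13Rik was the gene with no fall at the first step (0.01). The calls of Aif1 and Anxa9 ended in 7 of 16 and 11 of 15 alternative settings.

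Of the genes that rose, Ubxn2a, an adaptor of the p97 segregase, had log2 intensities of 6.17, 6.39, 6.55 and 6.31 with IL-2 alone, 6.00 and 5.14 at 0.25 µM, 6.17 and 6.57 at 1 µM and a mean of 6.88 ± 0.17 at 4 µM (SD, n = 2), against 6.42 ± 0.22 in untreated cells (SD, n = 3). Replicate 2 of 0.25 µM was the lowest of these samples, and both 4 µM samples were the highest. The slope was 0.66 ± 0.12 (adjusted p = 0.0279). Hamp2, a hepcidin gene, gave 0.50 ± 0.10 (adjusted p = 0.0309), with 4.87 and 4.37 at 0.25 µM, 4.89 and 4.81 at 1 µM and 5.61 and 5.65 at 4 µM. Rn7sk, the 7SK RNA that restrains transcription elongation, gave 0.36 ± 0.06 (adjusted p = 0.0115). With the mean of the probe sets of a gene, the calls of Rn7sk and Ubxn2a ended. Their rises were thus called only for the probe set with the highest mean, the one kept here. The call ended in 10 of 16 alternative settings for Rn7sk, in 6 of 17 for Ubxn2a and in 7 of 16 for Hamp2, beside the reversals given next. Rn7sk and Anxa9 had identical deposited values in 4 and 3 of the high-scale samples. Such sharing was general: 19.98% of all probe sets had a value shared by 3 or more high-scale samples. Among low-scale samples the share was 0%. The rises of Ubxn2a and Hamp2 took the opposite sign when the form of the sample title stood in for the scale, a term that sets replicate 1 of 4 µM on the high scale.

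Some of the genes that IL-2 raised most, among them Gzmb and Ifng, showed no called slope. Gzmb, the gene of the protease granzyme B, had log2 intensities of 11.41, 11.46, 12.17 and 12.03 with IL-2 alone, 7.08 and 7.76 at 0.25 µM, 6.15 and 7.09 at 1 µM and 6.62 and 6.94 at 4 µM, against 7.04, 5.88 and 6.80 in untreated cells. All samples with the inhibitor lay below every sample with IL-2 alone, and the 3 doses overlapped. The slope was -0.32 ± 0.23 (adjusted p = 0.729). Ifng, the gene of interferon-gamma, stood at 6.03 and 6.30 at 0.25 µM, 6.14 and 6.14 at 1 µM and 5.77 and 5.99 at 4 µM, against 9.76 to 10.27 with IL-2 alone. Its slope was -0.14 ± 0.11 (adjusted p = 0.773). Prf1, the perforin gene, was 7.54 and 7.16 at 0.25 µM, 7.16 and 7.32 at 1 µM and 7.86 and 7.98 at 4 µM, with a slope of 0.28 ± 0.16 (adjusted p = 0.619). Its 4 µM samples lay above the untreated ones (6.79 to 7.26).

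Feedback and growth genes of the IL-2 and STAT5 list gave 0 of 38 called, with a median slope of -0.16. The STAT5 targets Cish (-0.12 ± 0.09) and Socs1 (-0.29 ± 0.09), which encode inhibitors of cytokine signalling, did not pass (adjusted p = 0.775 and 0.347). Il2ra, the high-affinity receptor chain gene, had 7.53 and 7.78 at 0.25 µM, 7.16 and 7.45 at 1 µM and 6.45 and 6.91 at 4 µM, and its slope of -0.49 ± 0.12 had an adjusted p of 0.152. The 3 doses of Il2ra were in falling order without overlap and the 4 µM samples were below the untreated ones, which lay between 7.01 and 7.69. Other genes of the list with the smallest p were Pim2 (-0.42 ± 0.12) and Ikzf4 (-0.24 ± 0.08), and Myc (-0.34 ± 0.13), Bcl2 (-0.27 ± 0.11), Socs2 (-0.22 ± 0.10), Pim1 (-0.02 ± 0.13) and Il7r (-0.14 ± 0.11) did not pass either. Of 12 cytokine and chemokine genes of NK cells 0 were called, with Ccl4 (-0.49 ± 0.12, adjusted p = 0.14) and Xcl1 (-0.30 ± 0.14) the closest among those raised by IL-2. Il10 (-0.24 ± 0.09) and Ccl1 (-0.18 ± 0.08), which IL-2 had not raised, gave adjusted p of 0.426 and 0.503. Of 21 genes of cytotoxic granules and death ligands 0 were called, with a median of -0.01 and Tnfsf10 (-0.37 ± 0.12), Gzmc (-0.42 ± 0.18), Gzmd (-0.25 ± 0.12) and Gzma (0.32 ± 0.16) the smallest p.

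Over all 334 genes that IL-2 raised at least 2-fold, 24 fell with dose (7.19%, against 0.137% of all genes) and 0 rose. Their median slope was -0.17. Of these genes 62.3% had slopes within 0.25 of 0, as had 95.9% of all genes. Among the 30 with the largest change by IL-2, the slopes nearest 0 belonged to F2rl2 (-0.01 ± 0.11), a thrombin receptor gene, Klrb1a (0.03 ± 0.18), Sh2d1b2 (0.05 ± 0.15), Clnk (0.06 ± 0.12), Serpinb9b (-0.12 ± 0.12) and Gem (-0.14 ± 0.13). Of the 334 genes 229 were called lower at 0.25 µM than with IL-2 alone (2.26% of all genes). This comparison shares the IL-2 samples by which the 334 were chosen. Each of the 6 was called lower at 0.25 µM than with IL-2 alone, with differences between -2.98 for Sh2d1b2 and -2.08 for Gem. Of the 120 genes that IL-2 lowered at least 2-fold, 0 were called for the slope, the median was -0.01, and 115 were called higher at 0.25 µM than with IL-2 alone (2.74% of all genes), again with the IL-2 samples shared between choice and comparison. They included Clec4a3 (0.00 ± 0.14), Clec4a1 (-0.01 ± 0.11) and the macrophage genes Csf1r (-0.01 ± 0.12) and Adgre1 (-0.01 ± 0.11), as well as Slc7a11 (0.02 ± 0.14) and Sort1 (0.03 ± 0.12). Clec4a1 stood at 9.42 and 9.25 at 0.25 µM, 9.57 and 9.61 at 1 µM and 9.18 and 9.44 at 4 µM, between 6.03 and 6.79 with IL-2 alone, and between 8.93 and 9.47 in untreated cells.

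**Figure D3:**
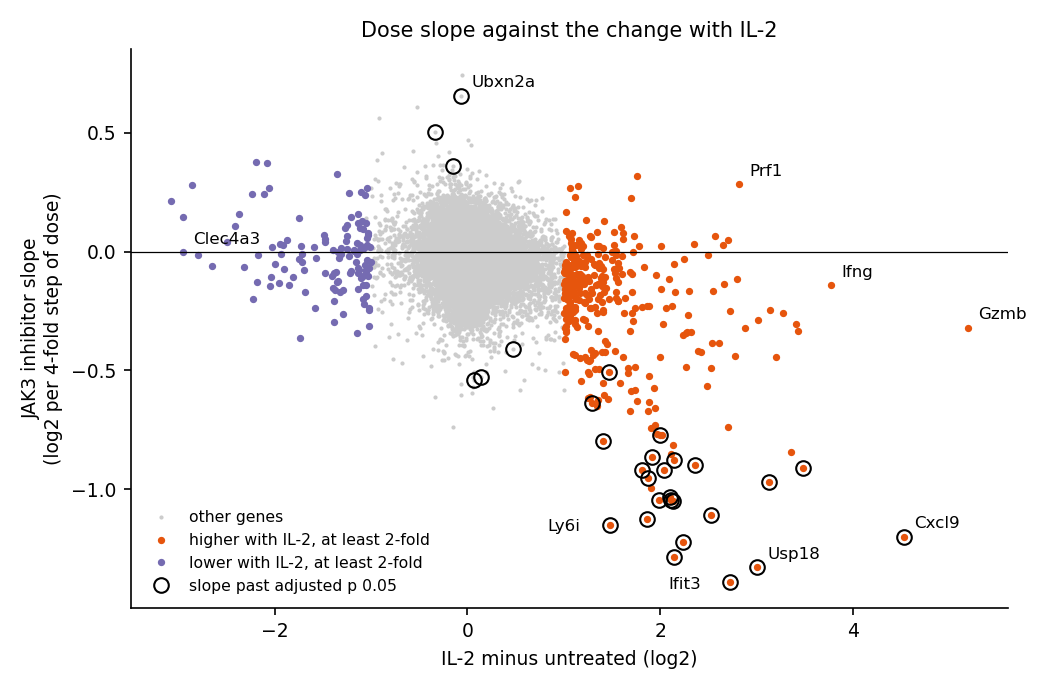
Slope over the JAK3 inhibitor doses (vertical axis, log2 per 4-fold step) against the change with IL-2 over untreated cells (horizontal axis, log2) for 19752 genes; colours mark genes raised or lowered at least 2-fold by IL-2 and rings the genes called for the slope. The falling genes, 24 of 27 of them raised by IL-2, form the lower edge of the plot. Gzmb, Ifng and Prf1, with larger or similar changes by IL-2, had no called slope.

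Lists of growth and metabolism had no called member. Median slopes were -0.09 for 43 ribosome biogenesis genes, -0.13 for 23 genes of polyamine, nucleotide and one-carbon synthesis, -0.07 for 23 genes of amino acid transport and the ATF4 response, 0.00 for 25 chaperones, -0.06 for 19 genes of sterol and fatty acid synthesis and -0.05 for 35 genes of DNA replication. All of these but the polyamine list lay within 0.05 of the median of all genes, -0.05. The nucleolar gene Npm1, with 8.28 and 8.39 at 0.25 µM and 7.99 and 7.47 at 4 µM, had the steepest slope of the ribosome list (-0.30 ± 0.09, adjusted p = 0.325). The G2/M list had a median of -0.20 with 0 of 29 called, and Bub1, a mitotic checkpoint kinase gene, stood at 6.62 and 6.98 at 0.25 µM, 6.79 and 7.14 at 1 µM and 4.46 and 6.76 at 4 µM. Replicate 1 of 4 µM alone was low, as it was for Kif11 and Nusap1. FOXO targets (28 genes) and NK receptor genes (27) had medians of 0.00 and 0.01.

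Among marker lists, NK cell genes had a median slope of 0.18 with 12 of 14 slopes above 0 and 0 called. Over all genes 68% of slopes were below 0. Gzma, the gene of granzyme A, stood at 8.07 and 8.26 at 0.25 µM, 7.92 and 7.96 at 1 µM and 8.98 and 8.62 at 4 µM, and the receptor genes Klrk1 (0.27 ± 0.12), Klre1 (0.26 ± 0.11) and Klra8 (0.23 ± 0.09) were also highest at 4 µM. The list's mean was 8.29 and 8.36 at 4 µM, against 7.86 to 8.09 at lower doses. T cell markers had slopes below 0 in 14 of 14 (68% of all genes), with a median of -0.26 and 0 called. In Cd5, Cd4, Cd28 and Cd8a replicate 1 of 4 µM was the lowest of the 6 samples. B cell, monocyte and macrophage, neutrophil and dendritic cell markers had medians of -0.03, -0.01, -0.07 and -0.08 with 0 called. No deposited value of any probe set lay below 1, so this bound gives no information on the markers. The mean of the antiviral effectors was low in both 4 µM samples, 6.41 in replicate 1 and 6.28 in replicate 2. The part of the marker shifts in the falling slopes was not tested.

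The 2 steps of dose were also tested apart. From 0.25 to 1 µM 0 genes passed (0%; 166 at an unadjusted p under 0.05), and from 1 to 4 µM 0 passed (0%; 1040 unadjusted, smallest adjusted p = 0.0707). The departure of 1 µM from the line between the outer doses gave 0 genes (0%; 145 unadjusted). In the 27 falling genes the median change was -1.08 at the first step and -0.86 at the second, and the first was the larger fall in 19. Both steps share the 1 µM samples. Rtp4 had the largest first step (-1.55) against -1.02 at the second, and Ly6i the largest second step (-1.35) against -0.95 at the first. A fall of at least 0.5 at both steps was seen in 36 genes (0.182% of all), and 34 of them were among the 334 raised by IL-2.

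No gene passed the test of 4 µM against untreated cells (0%; 1714 at an unadjusted p under 0.05 in limma, smallest adjusted p = 0.209). Among the 27, whose choice used these 4 µM samples, the differences were largest for Ifit3 (-1.09 ± 0.37, adjusted p = 0.513), Rtp4 (-0.96), Ly6i (-0.89 ± 0.26, adjusted p = 0.479) and Rsad2 (-0.85), and Zbp1 was nearest 0 with -0.05. At 0.25 µM 5 of the 27 were called lower than with IL-2 alone: Cxcl9 (-2.56), Cxcl10 (-2.14), Zbp1 (-1.23), Cd274 (-0.89) and Ifi205 (-0.79). Irf7 (-0.31), Ifi27l2a (-0.26), Sdc3 (-0.18) and Ly6i (-0.06) were the IL-2-raised genes of the 27 nearest to IL-2 alone at that dose.

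The slopes of the JAK3 inhibitor were compared with those of the JAK1 inhibitor over the same 3 doses, where the JAK1 inhibitor had 1 sample at 4 µM that was assumed to vary like the others. This is 1 pair of compounds, tested in 19752 genes. The slope of the JAK1 inhibitor was below 0 in all 27 falling genes (67.8% of all genes) and was called lower in 6 of them (0.223% of all genes were called lower and 0.0253% higher). The slope was steeper with the JAK3 inhibitor in 22 of the 27, which were chosen by that slope. The difference of slopes was called in 0 of the 27, and 4 had an unadjusted p under 0.05: 2410018L13Rik (-0.45), Aif1 (-0.33) and Ifit2 (-0.53), steeper with the JAK3 inhibitor, and Cxcl9, steeper with the JAK1 inhibitor. For Ifit3 the slopes were -1.39 ± 0.21 with the JAK3 inhibitor and -0.83 ± 0.25 with the JAK1 inhibitor, a difference of -0.57 (95% interval -1.23 to 0.10). For Oasl2 they were -1.22 ± 0.17 and -1.21 ± 0.20, a difference of -0.01 (-0.54 to 0.53). For Cxcl9 they were -1.20 ± 0.15 and -1.86 ± 0.19, a difference of 0.66 (0.18 to 1.15, unadjusted p = 0.0103) that did not pass adjustment. These intervals do not show that the inhibitors act alike on these genes.

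Ifng and Clnk were the genes whose slopes differed between the inhibitors (0.0101% of all genes). Ifng had a slope of -0.14 ± 0.11 with the JAK3 inhibitor and -1.47 ± 0.14 with the JAK1 inhibitor, a difference of 1.33 (95% interval 0.97 to 1.69, adjusted p = 0.00527). Its log2 intensity with the JAK3 inhibitor was 6.03 and 6.30 at 0.25 µM and 5.77 and 5.99 at 4 µM, and with the JAK1 inhibitor 9.17 and 8.69 at 0.25 µM, 7.19 and 6.64 at 1 µM and 5.99 in the 4 µM sample. The samples of the 2 inhibitors lay apart at 0.25 µM and overlapped at 4 µM. Clnk, an adaptor gene of cytokine-stimulated lymphocytes, gave 0.06 ± 0.12 with the JAK3 inhibitor and -1.04 ± 0.14 with the JAK1 inhibitor, a difference of 1.11 (0.73 to 1.48, adjusted p = 0.0493). Gzmb gave -0.32 ± 0.23 with the JAK3 inhibitor and -1.76 ± 0.28 with the JAK1 inhibitor, and the difference of 1.44 (0.70 to 2.18) did not pass (adjusted p = 0.811). The log2 intensity of Gzmb with the JAK1 inhibitor was 10.55 and 10.28 at 0.25 µM, 8.97 and 7.22 at 1 µM and 6.89 in the 4 µM sample, so its 1 µM samples lay far apart. Xcl1 was closer to the threshold than Gzmb and did not pass either. Its slopes were -0.30 ± 0.14 with the JAK3 inhibitor and -1.49 ± 0.17 with the JAK1 inhibitor, a difference of 1.18. The count of 2 genes became 0 within the low scale, without replicate 1 of 0.25 µM JAK3 inhibitor and without replicate 1 of 0.25 µM JAK1 inhibitor.

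**Figure D4:**
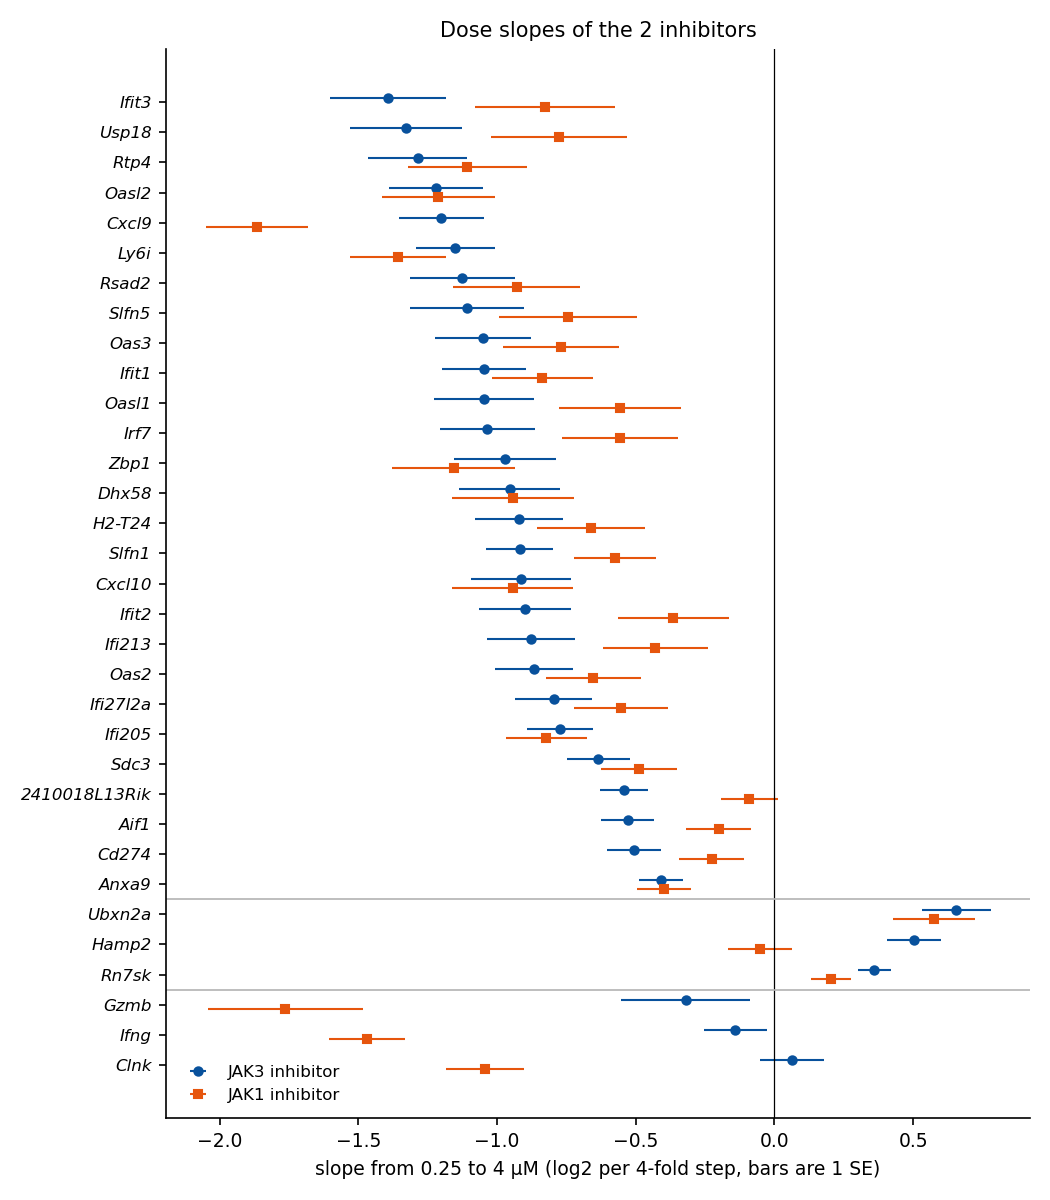
Slopes from 0.25 to 4 µM (horizontal axis, log2 per 4-fold step) of the JAK3 inhibitor (circles) and the JAK1 inhibitor (squares), with bars of 1 standard error, for the 27 falling and 3 rising genes and for Gzmb, Ifng and Clnk. In the 27 genes both slopes are below 0, whereas Ifng and Clnk fall with the JAK1 inhibitor and stay near 0 with the JAK3 inhibitor.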

How the data were processed

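Values came from 1 deposited table of 24922 probe sets. Per the submitters' processing notes, the authors made the intensity values with Affymetrix Power Tools and RMA (versions not given in the sources used here), and the table holds them on a linear scale. Values were turned into log2. Probe sets with 1 gene symbol (21425) were used, 1399 with several symbols and 2098 not in the annotation table were left out, and of 921 genes with several probe sets the one with the highest mean was kept, which gave 19752 genes. All 19 samples were fitted in limma 3.58.1 (R 4.3.3) with a mean per group and a term for the scale (log2 median above or below 6.6), then eBayes with an intensity trend (9 residual and 10.5 prior degrees of freedom). The slope gives the 1 µM samples no weight. A group with a single sample borrowed its spread from the rest.

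The members, gene lists and tests were chosen with earlier results of these data known. Named genes were all genes called for the slope, up to 4 members with the smallest slope p of each list, a panel of genes of the IL-2 response, the genes whose slope differed between inhibitors, and the 6 IL-2-raised and 6 IL-2-lowered genes with the slope nearest 0 among the 30 changed most; a few further list members are named by their values. Python 3.11.15 with pandas 2.3.3, numpy 2.4.6 and matplotlib 3.10.9 searched RefSeq promoters and drew figures. The fit was also run on simulated data with planted slopes, and the outcome is not reported here. Its noise was independent between genes, so shifts shared by many genes of a sample were not covered. Alternatives changed the normalization, the filter on dim genes, the probe set, the variance trend, the replicate block, the scale term, the samples fitted and single samples.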

Additional observations from a re-analysis of the deposited data

Results flagged for a closer look

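Within the 4 samples with IL-2 alone, which the dose series is set against, 13 of 148 genes tested had a sample far from the other 3, measured by its gap to the nearest sample as a share of the group's range (critical value 0.829). Chance flags about 1 in 20 such groups. Replicate 3 was the far sample for Ifit1 (share 0.862), Slfn1 (0.892), Cxcl10 (0.832), Dtx3l (0.858), Dnaja1 (0.845) and Ccnd1 (0.917), in each of them as the highest, and for Anxa9 (0.941) as the lowest. For Ifit1 it stood at 8.78, against 7.74 to 7.88 in the other samples with IL-2 alone. Replicate 4 was highest for Uba7 (0.883). Replicate 1 was lowest for Ifnar1 (0.865), Socs2 (0.836), Myc (0.837) and Gem (0.876) and highest for Sort1 (0.848). The dose slope uses none of these samples except through the shared spread and scale term.

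The slopes of the 2 inhibitors differed by test in Ifng, with a difference of 1.33, and in Clnk, with a difference of 1.11 (JAK3 minus JAK1 inhibitor, log2 per 4-fold step).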

How the results depend on the processing

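The 30 genes called for the slope became 55 with a straight line through the 6 samples alone and 280 (all lower, with a median slope of -0.46 over all genes) with the title form in place of the scale, a term that sets replicate 1 of 4 µM on the high scale. Under the title form Ubxn2a, Hamp2 and Sh2d1b2 reversed to -0.037, -0.21 and -0.82. In the other settings that left out no single sample the count lay between 22 and 39, with 39 over genes without shared high-scale values, a setting chosen after seeing the data. With single samples left out it ran from 0 to 171, and the falling genes among those raised by IL-2 (24) from 0 to 57, with 13 without replicate 1 of 4 µM, and 57 and 47 without untreated replicates 2 and 3. The called members of all gene lists other than the cell marker lists (19) ran from 0 to 42, with 10 without replicate 1 of 4 µM. In the full fit all 19 were on the interferon lists. In the other settings this count also takes in lists such as G2/M and IL-2 and STAT5, and it was not split by list. The step from 1 to 4 µM ran from 0 to 83 and the departure of 1 µM from 0 to 2, both highest without replicate 2 of 4 µM, and the first step gave 0 in each of those settings. The difference between inhibitors (2 genes) was 6 under either quantile normalization, 1 with the mean of probe sets and 0 within the low scale, and ran from 0 to 6 with single samples left out. The causes of these shifts were not tested. Fewer samples enter when one is left out. Without replicate 2 of 0.25 µM, that dose keeps only its high-scale sample, while both 4 µM samples lie on the low scale. The slope then rests on the estimated scale term.

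With the replicate number as a replicate block, the slope called 22 genes, the first step 1, the second step 2 and the difference between inhibitors 10. Same-numbered samples correlated at -0.22, -0.01 and 0.39 between doses. With 2 samples per dose, these values cannot show whether the numbers pair the samples. Over 504 pairs of a called gene and a setting, 390 kept direction and call, 112 lost the call and 2 reversed. The values carry no background measure. The 4 µM dose has no high-scale sample, so no slope could be fitted within that scale.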
